A study of Mus musculus with 14 samples.

Results

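Mouse spleen cells enriched for follicular dendritic cells (FDC-E) were compared with spleen cells depleted of them (FDC-D) for the genes of secreted and cell-surface proteases and of the protein families that inhibit proteases. The members were the probe sets with a single gene symbol that named a serpin, a Timp, a cystatin, a Spint gene, an Mmp, an Adam or an Adamts gene. There were 161 such probe sets out of 29131 with a single symbol, and they stood for 104 of 15964 genes. By family, 50 genes were inhibitors, 49 were proteases and 5 were Adamts-like genes, whose products resemble Adamts enzymes but lack the protease domain. Follicular dendritic cells are stromal cells that display antigen to B cells in the follicles of lymphoid tissue. Both groups were primary splenocytes of Mus musculus, and total RNA was hybridised to 3 array sets, A, B and C. FDC-D samples 1 and 2 were measured on every set, FDC-E samples 1, 2 and 3 on sets A and C, and FDC-E samples 2 and 3 on set B. Strain, age, treatment and the isolation procedure were not given in the sources used here, and no label said whether the samples were prepared from different mice. The p-values therefore rest on the spread of these samples alone, and that spread may be a technical one.

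A protease cuts other proteins, and its inhibitors limit where and for how long it does so. Serpins trap mainly serine proteases by a change in their own fold. Clade A serpins are mostly secreted into plasma, clade B serpins act mostly inside cells, and a few serpins inhibit nothing. Timps inhibit the matrix metalloproteinases (Mmp) and some Adam and Adamts enzymes, which cut matrix proteins or release proteins from the cell surface, and cystatins inhibit cathepsins. In lymphoid stroma these families are known for remodelling the matrix on which the cells lie.

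The genes that carried the largest differences included 3 clade B serpins that lie in a single gene cluster on chromosome 13, and the matrix-related genes Serpinh1 and Timp3. The 250 bases before their annotated start sites, from RefSeq on build GRCm38.p6, are shown so that the start regions of genes that moved together can be set side by side. Capitals mark the letters GGGCGG (a GC box), GAAA, any 2 bases, GAAA (an interferon-response type motif) and GAANNTTC or TTCNNGAA (heat-shock type motifs), searched on both strands; all other letters are in lower case.
Serpinb6b, chr13:32965011-32965260, plus strand: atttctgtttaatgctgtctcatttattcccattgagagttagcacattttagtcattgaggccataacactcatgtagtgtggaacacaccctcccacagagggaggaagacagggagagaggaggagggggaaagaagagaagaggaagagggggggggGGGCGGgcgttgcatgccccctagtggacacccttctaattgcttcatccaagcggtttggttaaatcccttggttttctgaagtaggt
Serpinb9, chr13:33004291-33004540, plus strand: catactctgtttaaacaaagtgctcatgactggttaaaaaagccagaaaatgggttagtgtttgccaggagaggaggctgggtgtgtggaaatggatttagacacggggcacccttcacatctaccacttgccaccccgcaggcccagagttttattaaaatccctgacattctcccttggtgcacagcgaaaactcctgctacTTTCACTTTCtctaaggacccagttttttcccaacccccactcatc
Serpinb6a, chr13:34002795-34003044, minus strand: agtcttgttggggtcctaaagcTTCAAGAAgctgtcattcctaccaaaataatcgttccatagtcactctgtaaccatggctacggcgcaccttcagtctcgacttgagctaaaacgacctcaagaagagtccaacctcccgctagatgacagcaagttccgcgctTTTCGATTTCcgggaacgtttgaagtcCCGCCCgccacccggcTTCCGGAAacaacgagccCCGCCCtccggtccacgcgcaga
Serpinh1, chr7:99353240-99353489, minus strand: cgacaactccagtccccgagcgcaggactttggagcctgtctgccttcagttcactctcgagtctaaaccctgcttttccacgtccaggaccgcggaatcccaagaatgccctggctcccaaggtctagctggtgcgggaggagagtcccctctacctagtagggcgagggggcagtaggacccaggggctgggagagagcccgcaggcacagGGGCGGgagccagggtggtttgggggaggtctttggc
Timp3, chr10:86300162-86300411, plus strand: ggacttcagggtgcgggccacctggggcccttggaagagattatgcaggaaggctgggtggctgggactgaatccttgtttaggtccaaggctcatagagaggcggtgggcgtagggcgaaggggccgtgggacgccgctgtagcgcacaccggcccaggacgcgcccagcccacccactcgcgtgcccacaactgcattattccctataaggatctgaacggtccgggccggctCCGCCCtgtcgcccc

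Serpinb9 and Serpinb6a each held 1 match to the interferon-response type motif, which was found in 2.98% of all 32851 promoter windows of this length. Serpinb6a also held 2 GC boxes and 2 heat-shock type motifs in the window shown, which belongs to 1 of its 2 annotated start sites, and the window of the other held none of the motifs. GC boxes occurred in 32.7% and heat-shock type motifs in 12.8% of all windows. In the 20 windows of members that rose the shares were 55.0% and 5.0%, and in the 48 of tested members 41.7% and 6.25%. Serpinb6b, Serpinh1 and Timp3 each held 1 GC box. These matches describe letters only, and no binding was measured.

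Inhibitor genes were higher in the enriched cells more often than genes at large, and the largest differences among the members were theirs. Of 31 inhibitor genes bright enough to be tested, 14 rose in FDC-E, 1 fell and the other 16 were not called, with a median log2 difference of 0.14. Of 27 tested protease genes, 8 rose, 2 fell and 17 were not called, with a median of 0.08. Over all 12267 genes tested in the same way, 19.3% were higher and 14.5% were lower in FDC-E, and the median was 0.02. The shares of members called higher, 45.2% of the inhibitors and 29.6% of the proteases, stood above that background, and the shares called lower, 3.23% and 7.41%, stood below it. Among the genes that rose, 3 inhibitors (Serpinh1, Timp3 and Serpina1b) and 1 protease (Mmp19) were bright enough to be tested in FDC-E alone. These genes had to differ and are counted in the shares, and Serpinh1 and Timp3 had the 2 largest differences. Without FDC-D sample 1, 9 of the 31 inhibitors rose (29.0%), beside 25.9% of the proteases and 14.4% of all genes in that fit. No test set these classes against each other or against other genes. Of the inhibitors that rose, 8 of 14 did so by over 2-fold, both as fitted and as a ratio of mean intensities. No such share of all genes is given here, so it cannot be said whether 8 of 14 is unusual. The 8 include Serpinh1 and Timp3, which were bright enough to be tested in FDC-E alone. Among the 8 proteases that rose none passed 2-fold as fitted and 1, Adamts4, did so as a ratio of means (2.11). Among the 5 Adamts-like genes, all tested, 1 rose. Classes follow the family name, so serpins that inhibit nothing and Adam genes without an active protease site are counted in them. By probe set, 15 of 36 members tested on set A were higher and 2 lower, where 23.1% and 17.9% of all probe sets were. On set B these were 11 and 1 of 27, against 19.4% and 17.0%, and on set C 3 and 1 of 22, against 9.50% and 8.73%. A gene was called when its adjusted p in limma was under 0.05, and each gene was read at its brightest tested probe set. Fold changes are on a log2 scale with a pseudocount added to every intensity, which understates the change of dim genes.

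**Figure D1:**
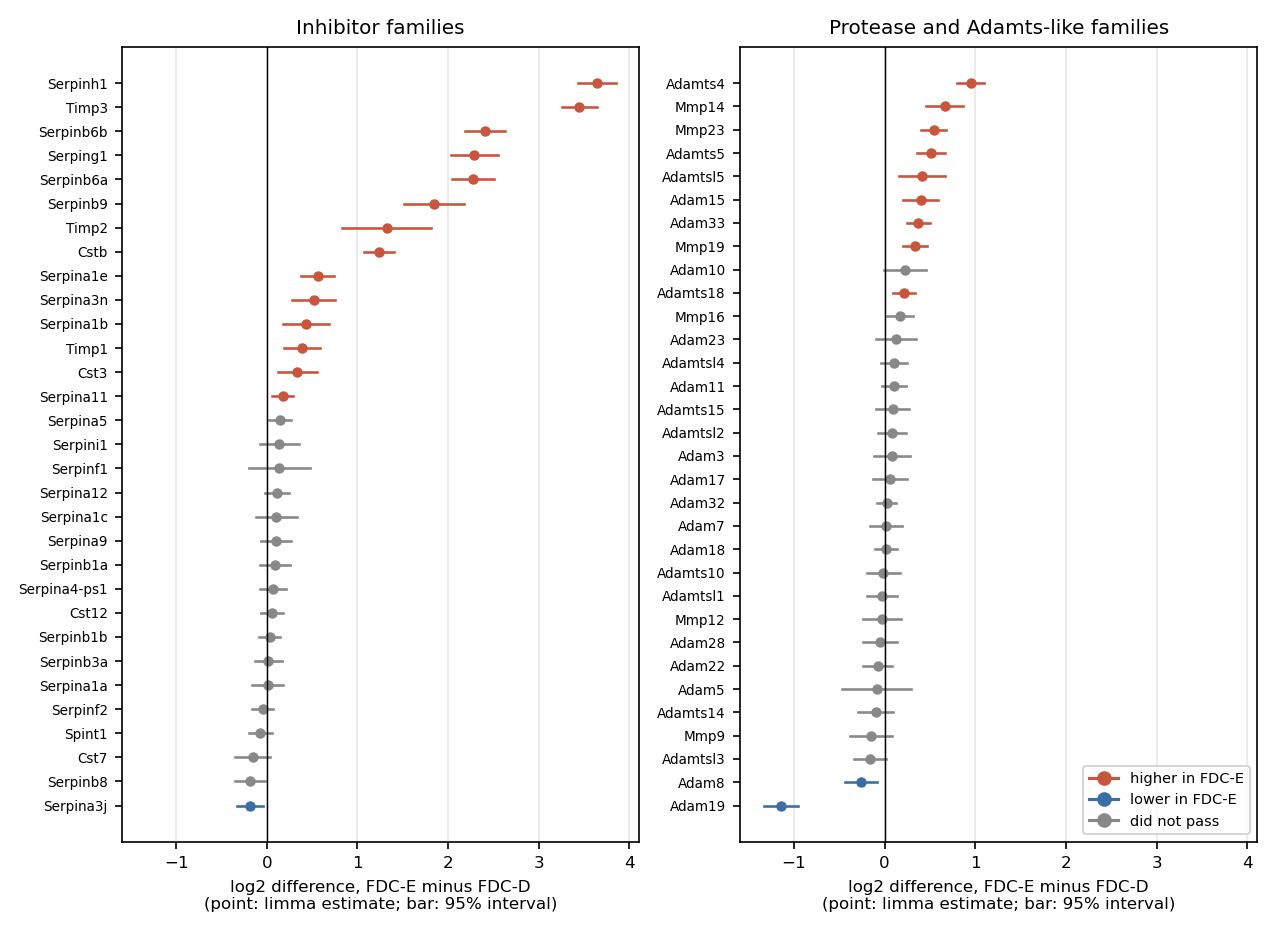
Log2 difference between FDC-E and FDC-D (horizontal axis) for each of the 63 tested member genes, with inhibitor families on the left and protease and Adamts-like families on the right; points are limma estimates at the brightest probe set and bars are 95% intervals. The inhibitor families reach 3.64 (Serpinh1, a collagen chaperone that inhibits no protease) and 3.45 (Timp3). The highest protease, Adamts4, lies at 0.95 and the lowest, Adam19, at -1.15.

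The overall picture of the arrays bears on these counts. Median intensities ran from 244.0 to 250.8 on the FDC-D arrays and from 264.7 to 279.0 on the FDC-E arrays of set A, and differed less on sets B and C. Scaling every array to the median array lowered the median difference of all probe sets on set A by 0.11 on the log2 scale, and it moved the share of higher genes among all genes called from 57.1% to 43.5% (46.7% under quantile normalization). Under scaling to the median array 12 inhibitors rose and 2 fell, 8 proteases rose and 2 fell, and the protease median was -0.0016. Of all 12267 genes 1882 were higher and 2442 lower in that fit, against 2365 and 1778 in the main fit. None of the 26 members called changed its direction under either scaling. Of the 63 tested members, the FDC-E arrays all lay above the FDC-D arrays for 30 and all below for 6, against 34.0% and 27.4% of all tested genes. Markers of several cell types differed between the groups as well, and their counts stand beside 19.3% of all genes higher and 14.5% lower. All 18 tested endothelial markers rose, and their summed intensity on set A was 3424 to 3632 on FDC-D and 23232 to 26127 on FDC-E arrays. Of 14 stromal fibroblast markers 13 rose, of 18 macrophage markers 16 rose, and of 14 FDC markers 11 rose and 2 fell. Of 18 B cell markers 15 fell, of 17 T cell markers 13 fell, and all 9 NK cell markers fell. Of 9 platelet markers 6 rose, of 10 dendritic cell markers 2 rose and 4 fell, and of 7 plasma cell markers 1 rose and 4 fell. In such mixed samples, fewer cells of a type and less RNA per cell cannot be told apart, and the part of these cell types in the results below was not tested.

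**Figure D2:**
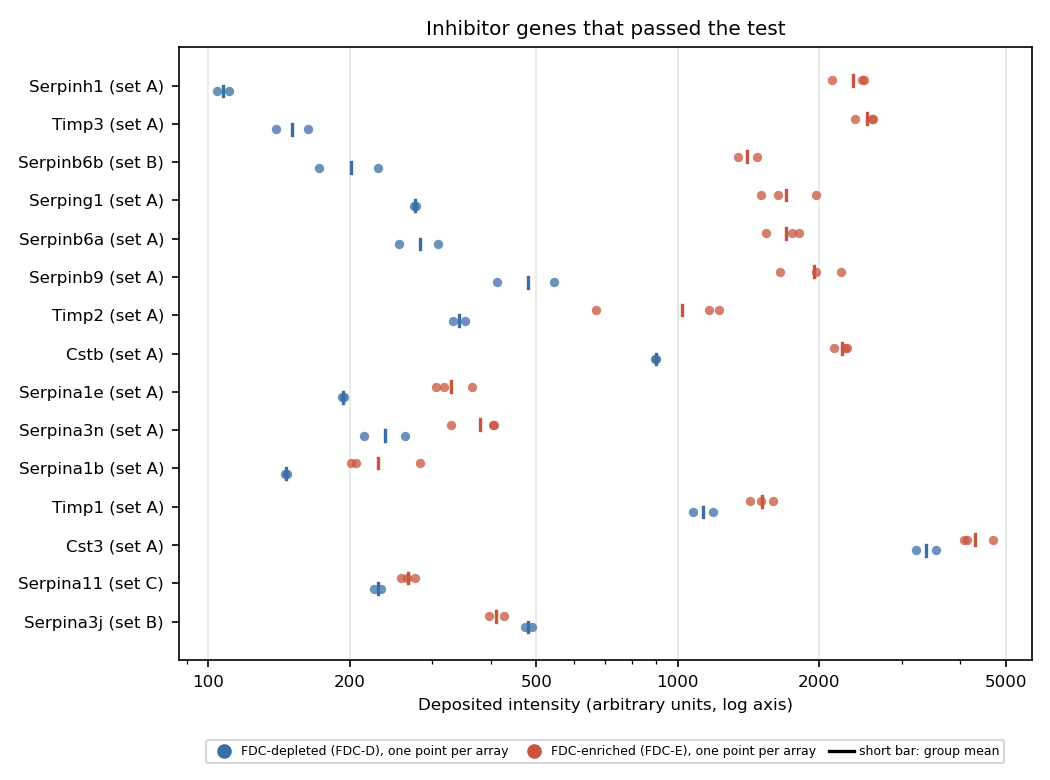
Deposited intensity (log axis) of each of the 15 inhibitor genes that passed, with 1 point per array and a short bar at each group mean; set names the array set of the probe set shown. Serpinh1 and Timp3 lie between 104 and 163 on the FDC-D arrays and above 2000 on all FDC-E arrays, and only Serpina3j is lower in FDC-E.

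All 3 tested Timps rose at their brightest probe sets, where 19.3% of all tested genes did, and Timp3 rose by far the most. Timp3, which stays bound to the matrix and inhibits Adam and Adamts enzymes as well as Mmps, read 163 and 139 on the FDC-D arrays and 2385, 2594 and 2603 on the FDC-E arrays (probe set 160519_at). Both FDC-D arrays lay below the filter that sets aside dim probe sets, so Timp3 was tested through its FDC-E arrays and had to differ. The log2 difference was 3.45 ± 0.08 (SE, n = 2 and 3), or 10.9-fold, and no p-value is given for that reason. Timp2, which inhibits Mmps and also helps Mmp14 to activate pro-Mmp2, read 333 and 352 in FDC-D and 671, 1168 and 1223 in FDC-E (93507_at). FDC-E sample 1 was the low array of its group, though still above both FDC-D arrays. The rise was 2.50-fold (adjusted p = 0.00133). A second Timp2 probe set, 168621_i_at on set C, went the other way, from 279 ± 2.98 (SD, n = 2) to 229 ± 3.70 (SD, n = 3), with a log2 difference of -0.24 (adjusted p = 0.00889). Timp1, a soluble inhibitor of most Mmps, was already bright in FDC-D at 1077 and 1190 and reached 1599, 1428 and 1505 in FDC-E, a rise of 1.31-fold (adjusted p = 0.00679). Without FDC-D sample 1 the adjusted p of Timp1 was 0.101. Timp4 was too dim to be tested, at 52.5 ± 0.220 (SD, n = 2) and 54.7 ± 1.16 (SD, n = 3).

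Serpinh1 had the largest difference of all members. It encodes the collagen chaperone Hsp47 of the endoplasmic reticulum, a serpin by fold that inhibits no protease. Its intensity was 104 and 111 in FDC-D and 2136, 2500 and 2468 in FDC-E (94817_at). No array came near the other group. The fitted log2 difference was 3.64 ± 0.09 (SE, n = 2 and 3), or 12.5-fold. For Serpinh1 and Timp3 both FDC-D arrays were below the filter that sets aside dim probe sets. Both genes passed it through FDC-E and had to differ, so no p-value is given for them. The size of these folds depends on the pseudocount. With it at the 40th and 10th percentile the log2 difference of Serpinh1 was 3.11 and 3.93. Serping1, the C1 inhibitor that restrains complement and the contact system, read 274 and 277 in FDC-D and 1504, 1633 and 1971 in FDC-E. It rose 4.89-fold (99081_at, adjusted p = 1.45e-06). Serpinf1, known as PEDF, an antiangiogenic protein that inhibits no protease, did not pass at its brightest probe set (log2 difference 0.14, 95% interval -0.20 to 0.48, FDC-E sample 2 without a value). Its other probe set, 93574_at, lay below the filter with 69.2 and 78.4 in FDC-D and 195, 176 and 175 in FDC-E, and without the filter it passed at 1.67-fold. Serpini1 (neuroserpin) and Serpinf2 (the antiplasmin) did not pass, with log2 differences of 0.14 and -0.05.

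Among the clade B serpins, 3 of 7 tested genes rose and none fell, against 19.3% and 14.5% of all genes. Serpinb6b read 172 and 230 in FDC-D and 1343 and 1473 in FDC-E on set B. It rose 5.30-fold (116102_at, log2 difference 2.41 ± 0.10, SE, n = 2 and 2, adjusted p = 4.89e-08). Its relative Serpinb6a, an inhibitor of leukocyte and other serine proteases, read 255 and 309 in FDC-D and 1540, 1818 and 1753 in FDC-E, a rise of 4.84-fold (96060_at, adjusted p = 8.85e-07). Serpinb9, the mouse inhibitor of granzyme B, read 413 and 546 in FDC-D and 1649, 2227 and 1975 in FDC-E (98405_at). The rise was 3.59-fold (adjusted p = 1.92e-05), and a second probe set on set B rose 4.19-fold, from a mean of 69.6 to a mean of 551. That second probe set lay below the filter in FDC-D and was tested through its FDC-E arrays, so it had to differ. At the brightest Serpinb9 probe set every FDC-E array lay above every FDC-D array. As the genes are near relatives, some of the signal of a probe set may come from another family member.

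The 3 genes lie in the Serpinb cluster of chromosome 13, whose start regions are printed above, and their promoters shared no motif among those searched in all 3. In the gene order of assembly GRCm38.p6, Serpinb6b and Serpinb9 were the third and the fourth serpin of the cluster and Serpinb6a was the last of 16. Serpinb1a and Serpinb1b of the same cluster did not pass at their brightest probe sets, with log2 differences of 0.09 and 0.03. Serpinb1a, an inhibitor of neutrophil elastase, rose at a dimmer probe set on set A, from 108 and 143 to 251, 292 and 296. There its fitted change was 1.72-fold, and its probe sets did not agree in their call. The FDC-D arrays of that dimmer probe set lay below the filter, so it was tested through FDC-E and had to differ. Of the Serpinb cluster on chromosome 1, Serpinb3a and Serpinb8 were tested and neither passed at the brightest probe set. Serpinb8 had a log2 difference of -0.19 on set C and rose with 0.17 on set B (adjusted p = 0.0415).

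Clade A serpins showed small differences at the probe sets that stand for the genes. Among 11 tested genes there were 4 that rose (36.4%, against 19.3% of all genes) and 1 that fell, and the largest change was 1.48-fold. A probe set shared by Serpina1a to Serpina1e, which entered no count, was 1.92-fold higher. Its FDC-D arrays lay below the filter, so it was tested through FDC-E. A dim probe set of Serpina1c read 88.5 and 90.7 in FDC-D and 172, 158 and 179 in FDC-E. The tested probe sets of the alpha-1-antitrypsin genes Serpina1b and Serpina1e belong to a class designed for sequence families, so a value may combine several of these near-identical copies. Serpina1e read 193 and 195 in FDC-D and 317, 364 and 305 in FDC-E (101574_f_at, adjusted p = 0.000642). Serpina1b read 147 and 146 against 282, 202 and 207 (101576_f_at, 1.35-fold), with FDC-E sample 1 the high array. Serpina1b lay below the filter in FDC-D and was tested through FDC-E, so it had to differ and no p-value is given. Its call was lost without FDC-D sample 1 or 2. Serpina1c at its brightest probe set (log2 difference 0.11), Serpina1a (0.01), Serpina5 (0.15), Serpina12 (0.11) and the pseudogene Serpina4-ps1 (0.07) did not pass. Liver also makes these serpins. Of the hepatocyte markers, 6 lay below the filter and none of the 4 tested passed, the highest being Apoa1 with a log2 difference of 0.14. Whether any of the signal came from liver was not tested.

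Serpina3n, an inhibitor of leukocyte proteases that includes granzyme B among its targets, read 214 and 263 in FDC-D and 404, 329 and 405 in FDC-E. It rose 1.43-fold (104374_at, adjusted p = 0.00408), and the adjusted p without FDC-D sample 1 was 0.0503. Serpina3j was the only inhibitor that fell, from 488 and 472 to 396 and 426 on set B (1.14-fold, adjusted p = 0.0414). Its call was lost without FDC-D sample 1 (0.193), FDC-D sample 2 (0.111) or FDC-E sample 2 (0.182). Serpina11 rose 1.13-fold, from 233 and 225 to 276, 265 and 258, with adjusted p = 0.0459. Without each library in turn its adjusted p was between 0.0858 and 0.207, and scaling to the median array gave 0.0776, quantile normalization 0.0716. Serpina9, which germinal centre B cells are known to express, did not pass (log2 difference 0.10 on set C and -0.15 on set B).

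Cystatins were led by Cstb. Cstb, the cystatin B that guards the cell interior against leaked cathepsins, read 897 and 900 in FDC-D and 2158, 2290 and 2275 in FDC-E (100581_at). The arrays within each group lay close together, and the rise was 2.36-fold (adjusted p = 4.51e-06). Cst3, the secreted cystatin C, read 3227 and 3551 against 4075, 4705 and 4139, a rise of 1.26-fold (99586_at, adjusted p = 0.0196). Without FDC-D sample 1 or 2 the adjusted p of Cst3 was 0.179 and 0.0537, and with scaling to the median array it was 0.0819. Cst12 did not pass at its brightest probe set (log2 difference 0.06), and another probe set of it rose from 249 ± 4.03 (SD, n = 2) to 345 ± 8.78 (SD, n = 3). Cst7, the cystatin F of cytotoxic lymphocytes, had a log2 difference of -0.16 and did not pass, nor did the membrane inhibitor Spint1 with -0.07.

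**Figure D3:**
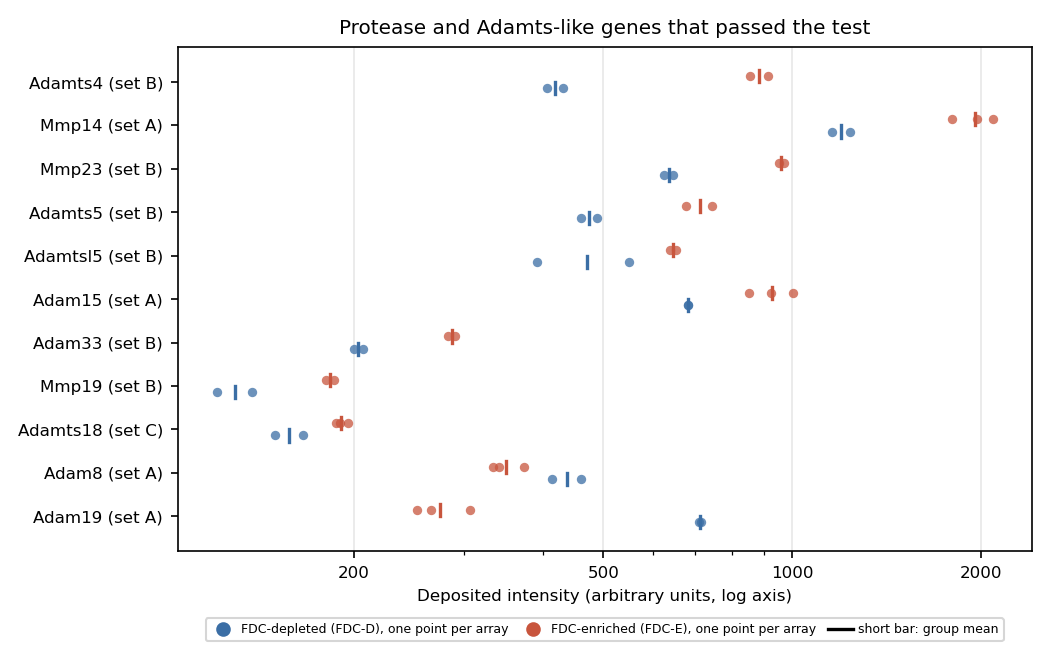
Deposited intensity (log axis) of the protease genes that passed and of Adamtsl5, with 1 point per array and a short bar at each group mean; set names the array set. Adamts4 shows the widest gap upwards, from 407 and 431 to 856 and 916, and Adam19 and Adam8 lie lower on every FDC-E array than on every FDC-D array.

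Of 6 tested Adamts genes 3 rose, as did 3 of 6 tested Mmp genes, against 19.3% of all genes. Each of them rose by under 2-fold as fitted at its brightest probe set. Adamts4, an enzyme that cuts aggrecan and versican, read 407 and 431 in FDC-D and 856 and 916 in FDC-E on set B (114150_at). It rose 1.93-fold, with a log2 difference of 0.95 ± 0.07 (SE, n = 2 and 2) and adjusted p = 2.27e-06. Its relative Adamts5 read 488 and 460 against 677 and 746 and rose 1.43-fold (116914_at, adjusted p = 0.000241). A dimmer Adamts5 probe set rose 2.27-fold, from 291 and 306 to 702 and 864, while 2 others did not pass. Adamts18 rose 1.16-fold on set C, from 166 and 150 to 190, 187 and 196 (adjusted p = 0.0256), and lost its call without FDC-D sample 2 (0.164), FDC-E sample 2 (0.0550) or FDC-E sample 3 (0.111). Adamts10, Adamts14 and Adamts15 did not pass, with log2 differences between -0.10 and 0.09. Adamtsl5 rose 1.33-fold, from 549 and 391 to 653 and 638, and had an adjusted p of 0.120 and a log2 difference of 0.21 without FDC-D sample 2. Adamtsl1, Adamtsl2, Adamtsl3 and Adamtsl4 did not pass, with log2 differences of -0.03, 0.08, -0.16 and 0.11.

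Mmp14, the membrane-bound collagenase that activates pro-Mmp2, was the brightest Mmp called. It read 1158 and 1235 in FDC-D and 1797, 2088 and 1967 in FDC-E, a rise of 1.58-fold (160118_at, log2 difference 0.66 ± 0.09, SE, n = 2 and 3, adjusted p = 0.000441). Mmp23 read 624 and 646 against 951 and 968 on set B and rose 1.45-fold (112880_at, adjusted p = 8.67e-05). Mmp19 rose 1.26-fold, from 121 and 138 to 181 and 186 (106619_at). For Mmp14 and Mmp23 the groups did not overlap. Mmp19 lay below the filter in FDC-D and was tested through its FDC-E arrays, so it had to differ and no p-value is given. Mmp9, the gelatinase of neutrophils and macrophages, read 297 and 336 against 311, 235 and 286 and did not pass (log2 difference -0.15, 95% interval -0.38 to 0.08). Mmp12, the macrophage elastase, did not pass at its brightest probe set with -0.03, nor did Mmp16 with 0.17. Of the neutrophil markers, 5 of 11 fell (45.5%, against 14.5% of all genes) and none rose. S100a8 was among those that fell, by 5.89-fold. Mmp2 lay below the filter, with 148 and 148 in FDC-D and 225, 149 and 184 in FDC-E.

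Of 15 tested Adam genes 2 rose and 2 fell, or 13.3% each way, against 19.3% and 14.5% of all genes. Adam19, a membrane protease that sheds growth factors, had the largest fall of the members and read 716 and 711 in FDC-D and 252, 307 and 265 in FDC-E (103554_at). It fell 2.21-fold, with a log2 difference of -1.15 ± 0.08 (SE, n = 2 and 3) and adjusted p = 1.25e-05. Adam8, a protease of leukocyte surfaces, read 414 and 460 against 333, 373 and 341 and fell by 0.26 on the log2 scale (103024_at, adjusted p = 0.0252). Its adjusted p was 0.0588 without FDC-D sample 1, 0.233 without FDC-D sample 2 and 0.0797 without FDC-E sample 3. Adam15, which endothelial cells are known to express, rose 1.32-fold, from 682 and 681 to 926, 854 and 1004 (103588_at, adjusted p = 0.00585). Without FDC-D sample 1 or 2 the adjusted p of Adam15 was 0.0537 and 0.0546. Adam33 rose 1.29-fold on set B, from 207 and 200 to 283 and 290 (107455_at, adjusted p = 0.000527).

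The main sheddases showed no call. Adam17, which releases TNF from the cell surface, read 393 and 393 in FDC-D and 458, 381 and 408 in FDC-E, with a log2 difference of 0.06 (95% interval -0.12 to 0.25). Adam10, which cuts Notch receptors and the IgE receptor CD23, had 0.22 (95% interval -0.01 to 0.46) and a second probe set gave 0.23. Adam28, a protease known from lymphocytes, had -0.05, and Adam11 and Adam22, which lack protease activity, had 0.11 and -0.08. Adam23, which also lacks it, did not pass at its brightest probe set (0.12) and rose 1.34-fold at a probe set on set B, from 143 and 159 to 217 and 240. Adam3, Adam5, Adam7, Adam18 and Adam32, known mainly from the male reproductive tract, were tested and did not pass, with log2 differences between -0.09 and 0.08.

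**Figure D4:**
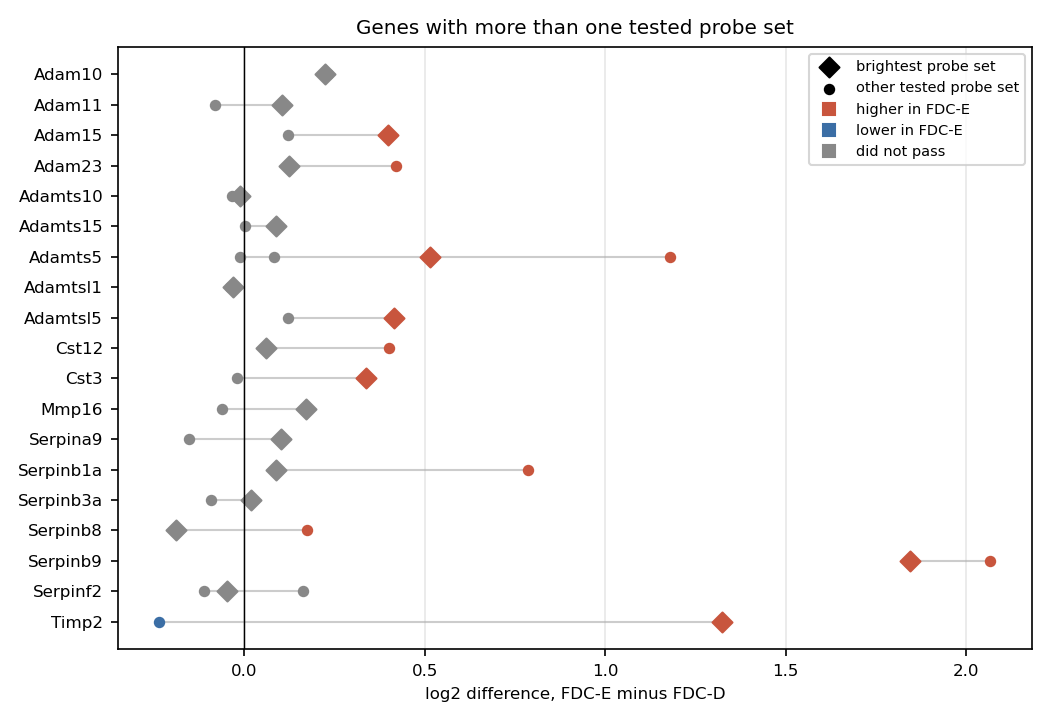
Log2 difference between FDC-E and FDC-D of every tested probe set of the 19 member genes that had more than 1; diamonds mark the brightest probe set, which stands for the gene, and colours mark the call. Timp2 is the gene whose probe sets passed in opposite directions, at 1.32 and -0.24, and Adamts5 spans -0.01 to 1.18.

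The filter on dim probe sets left out 76 of the 161 probe sets and, with them, 41 of the 104 genes altogether. A probe set had to exceed the 40th percentile of its array on at least 2 arrays, so a member that was bright only in one group could pass through that group and then had to differ. Serpinh1, Timp3, Serpina1b and Mmp19 passed in that way, through the FDC-E arrays, and they are among the 14 inhibitors and 8 proteases that rose. Dimmer probe sets of Serpinb9 and Serpinb1a, and the one shared by Serpina1a to Serpina1e, did so too. Among the 76, 10 were higher and 1 was lower in FDC-E when the filter was dropped, against 8.99% and 5.80% of the 10381 single-symbol probe sets below the filter. Adam9, a widely expressed sheddase, read 75.3 and 88.0 in FDC-D and 173, 192 and 172 in FDC-E and was 1.57-fold higher in that fit (96738_at). Mmp13, a collagenase, read 48.7 and 41.2 against 78.8, 67.3 and 79.8. A further Adamts5 probe set read 23.0 and 20.5 against 151 and 222. At such intensities the array's own background may make up much of the reading.

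**Figure D5:**
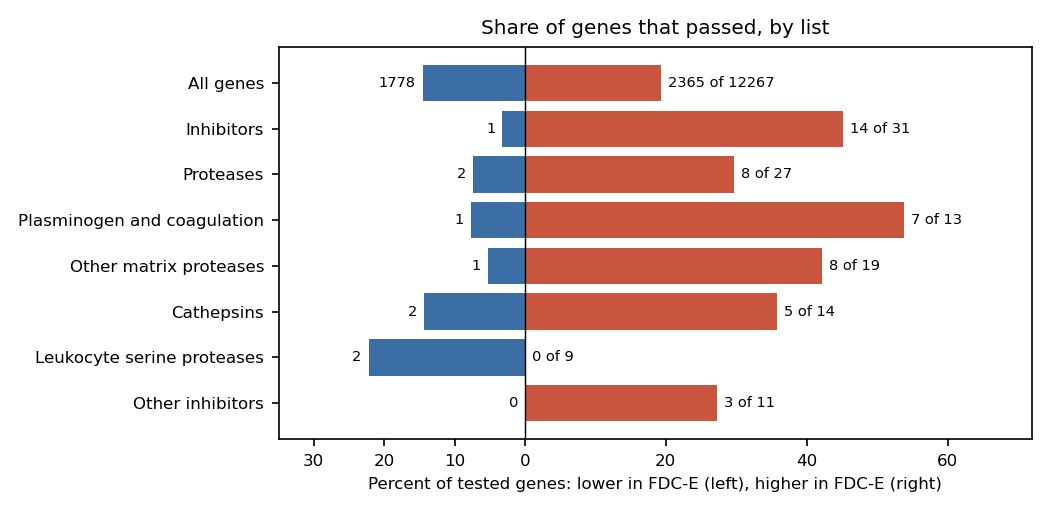
Percent of the tested genes of each list that were higher (right, with the count of genes called and tested) or lower (left, with the count) in FDC-E. All genes stand at 19.3% and 14.5%, the plasminogen and coagulation list has 7 of 13 genes higher, and the leukocyte serine proteases have 0 of 9 higher and 2 lower.

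Other protease systems were read from lists of genes, beside 19.3% of all tested genes higher and 14.5% lower. In the plasminogen and coagulation system, 7 of 13 tested genes rose (53.8%) and 1 fell (7.69%). The coagulation inhibitor gene Tfpi rose from 62.2 and 62.2 to 799, 834 and 904, and the endothelial protein C receptor gene Procr from 133 and 128 to 1055, 1225 and 1268. Thbd (thrombomodulin) rose from 25.1 and 34.4 to 490 and 595 with no value for FDC-E sample 2. The FDC-D arrays of these 3 genes lay below the filter, so no fold is given. Plat, the tissue plasminogen activator, rose 1.27-fold. Plaur, the urokinase receptor gene of leukocytes and other cells, fell 1.41-fold. Among 19 other matrix-processing genes 8 rose (42.1%) and 1 fell (5.26%). Prss23, a secreted serine protease, rose from 22.4 and 30.5, below the filter, to 357, 481 and 447. The procollagen C-proteinase enhancer Pcolce rose 3.09-fold, and the membrane-anchored Mmp inhibitor Reck rose 1.79-fold, from 176 and 193 to 337, 434 and 441. Cpm, a membrane carboxypeptidase, fell 1.24-fold.

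Of 14 tested genes on the list of cathepsins 5 rose (35.7%, against 19.3% of all genes). A further 2 fell (14.3%, near the 14.5% of all genes). The list holds cysteine cathepsins, which cystatins inhibit, and also the aspartic proteases Ctsd (higher) and Ctse (lower) and the serine carboxypeptidase Ctsa (not called). Of the cysteine cathepsins, Ctsl and Ctsb rose 4.15- and 2.16-fold, and Ctsw, known from cytotoxic lymphocytes, fell from 481 and 473 to 145, 143 and 142, below the filter. Among 9 leukocyte serine proteases none rose and 2 fell (22.2%, against 14.5% of all genes), both of them granzyme genes. Gzma fell from 935 and 1312 to 195, 134 and 156, below the filter. Gzmb, the target of Serpinb9, fell by 1.45-fold from 397 and 422 to 274, 243 and 249. Among 11 other inhibitors 3 rose (27.3%, against 19.3% of all genes) and none fell. Bst2, a restriction factor rather than a protease inhibitor, was 1 of the 3, with 2.18-fold. Itih3 of the inter-alpha-trypsin inhibitor family rose from 142 and 148, below the filter, to 258, 203 and 243.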

How the data were processed

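Each array set came with a table, deposited by the authors, that holds a linear intensity for every probe set on every array. The scaling and background correction behind these intensities were not given in the sources used here. FDC-E sample 2 on set A lacked 893 values, and those probe sets were fitted on the other arrays. Probe sets were named through the platform annotation, with symbols updated through the Entrez identifier, which matched for 10817, 10550 and 7677 of 10833, 10581 and 7717 single-symbol probe sets on A, B and C. Each set was fitted alone with limma 3.58.1 in R 4.3.3 (trended eBayes, two-sided, Benjamini-Hochberg over all tested probe sets) on log2(intensity + pseudocount), the pseudocount being the 20th percentile of positive values (88.5, 81.2 and 53.1). Of the members, 36, 27 and 22 probe sets were tested. A gene on several sets was read where its probe set ranked highest.

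An exact permutation test of 1 gene could not go below p = 0.1 on sets A and C or 0.333 on set B. The number of arrays limits the precision. Replicates of a group correlated at 0.987 or more (Spearman), and no 2 arrays shared more than 1 identical value. Members, lists and the naming rule (every member with a probe set that passed, up to 15 others in order of brightness, members whose probe sets disagreed, and up to 5 called genes per list) were chosen with earlier results of these data known. The printed promoters, the dim members and the further members that did not pass were chosen after their values were seen. The script was tested on simulated data. Promoters matched 42 of the 63 tested members.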

Additional observations from a re-analysis of the deposited data

How the results depend on the processing

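Of the 26 members called, 16 kept their call in each of the 15 alternatives that could test them. The other 10 lost it at least once, and none of the 26 changed direction. The 16 include Timp2, Cstb, Serping1, Serpinb6a, Serpinb6b, Serpinb9, Adamts4, Mmp14 and Adam19. They also include Serpinh1, Timp3 and Mmp19, which passed the filter through FDC-E alone and had to differ. The kept calls of these genes are therefore no separate support. Over the fits without 1 library, 9 to 14 inhibitors rose and 0 to 1 fell, with medians of 0.137 to 0.197, and 6 to 8 proteases rose and 1 to 3 fell, with medians of 0.0397 to 0.0972. The low counts of inhibitors came without FDC-D sample 1 (9 higher), and no inhibitor fell without FDC-D sample 2 or FDC-E sample 2. A single protease fell without FDC-D sample 1 or 2. Where a group was left with 1 array, that array is assumed to vary like the other group. The shares of all genes called changed between the fits without 1 library as well. Without FDC-E sample 1, 20.5% of all genes were higher and 15.6% lower, against 19.3% and 14.5% in the main fit. In each of the other such fits both shares lay below those of the main fit. The smaller counts of inhibitors and proteases can therefore not be read as particular to these classes. The mean of all probe sets was taken within the array set of the brightest one. The Timp2 probe set on set C, which fell, therefore did not enter it. Inhibitors called lower numbered 2 under quantile normalization, scaling to the median array and array weights. The inhibitor median was 0.0789 with no filter (50 genes tested) and 0.0902 with scaling to the median array. The protease median was 0.0906 and 0.0637 with the pseudocount at the 10th and 40th percentile, 0.0378 with no filter, 0.0104 under quantile normalization, -0.00159 with scaling to the median array, 0.0620 with array weights, 0.0633 with the mean of all probe sets and 0.105 with the replicate block. With the replicate block on sets A and C, 14 inhibitors and 7 proteases rose and 1 inhibitor and 1 protease fell, and Serpina11 (adjusted p = 0.243), Adamts18 (0.214) and Adam8 (0.0651) lost their calls in limma. The numbers were not shown to pair the samples (correlations of deviations of 0.03 and 0.06 on A and -0.31 and -0.15 on C for samples 1 and 2), and set B shares too few numbers for a block. The causes were not tested.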

Other observations

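Some probe sets carried the names of several member genes and entered no count. The probe set shared by Serpina1a to Serpina1e, 101575_i_at, read 75.7 and 69.2 in FDC-D and 210, 213 and 241 in FDC-E, and was 1.92-fold higher. It passed the filter through the FDC-E arrays alone. A second, shared by 4 of these genes, read 435 and 442 against 584, 512 and 570 and was 1.22-fold higher. The probe set shared by Serpinb9e, Serpinb9f, Serpinb9g and Serpinb9h lay below the filter, at 106 and 106 against 126, 110 and 117.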
